A study of Mus musculus with 12 samples.

Results

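Integrins are adhesion receptors made of an alpha and a beta chain, and 9 integrin genes of thymocytes were followed here by their symbols among the 23234 features of an RNA-seq expression table. They were the alpha chain genes Itgae, Itga4, Itgal, Itga6 and Itgav and the beta chain genes Itgb7, Itgb1, Itgb2 and Itgb3. The series holds 12 libraries of pre-selection CD4+CD8+ double positive (DP) thymocytes, sorted as CD24hiTCRβlo cells from mice on the C57BL/6 background. Wild-type newborn thymus gave 5 libraries, and newborn thymus of Bcl11bm/m mice gave 3. The Bcl11bm allele carries a frameshift that truncates Bcl11b before its final zinc finger, and its homozygotes die as neonates. The other 4 libraries came from Bcl11bfl/fl:Cd4-Cre mice. Their Cre is driven by Cd4 sequences and deletes Bcl11b around the DP stage, so that earlier stages develop with an intact gene. The sources used here do not give the age of these mice, and the paper's general age range for flow cytometry is not tied to them. Genotype and age therefore cannot be told apart in any comparison with these libraries. Titles and the overall design decided the genotype of each library, because the descriptions attached to wild-type libraries name Bcl11bm/m and those attached to Bcl11bfl/fl:Cd4-Cre libraries name a wild-type genotype. Nothing in the labels says that each library came from a separate animal, and the p-values then measure only the spread between these libraries.

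The partner chain sets what an integrin binds. The alpha E chain (CD103) pairs with beta 7 and binds E-cadherin on epithelium, alpha 4 pairs with beta 7 or with beta 1 and binds MAdCAM-1, VCAM-1 and fibronectin, alpha 6 pairs with beta 1 and binds laminins, alpha L pairs with beta 2 as LFA-1 and binds ICAMs, and alpha V pairs with beta 1 or with beta 3 and binds RGD-containing matrix proteins. In the thymus, integrins hold progenitors on stroma and matrix and carry them through the cortex, and CD103 marks many mature CD8 lineage cells. A chain without a partner does not normally reach the cell surface, so a transcript level is not a level of receptor.

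Bcl11b itself, the targeted gene, ranged from 132 to 292 FPKM in wild-type, from 430 to 482 FPKM in Bcl11bm/m and from 115 to 140 FPKM in Bcl11bfl/fl:Cd4-Cre libraries. FPKM counts fragments relative to transcript length and to the depth of the library, so levels can be compared between genes. The Bcl11b value covers the whole gene, so it shows neither the truncated product nor the deleted exons. No read numbers were used here, and the spacing of low FPKM values gave an estimated 2720000 to 6920000 fragments in the wild-type and Bcl11bm/m libraries and 11000000 to 45350000 in the Bcl11bfl/fl:Cd4-Cre libraries. The X-linked Xist was abundant in wild-type replicates 2 and 3, Bcl11bm/m replicate 1 and Bcl11bfl/fl:Cd4-Cre replicates 1, 2 and 3. The Y-linked Ddx3y, Kdm5d, Uty and Eif2s3y were abundant in the other libraries instead, except wild-type replicate 1, in which Xist and these genes were at most 0.1 FPKM. Zbtb7b, which encodes ThPOK, was at most 0.216 FPKM in wild-type, from 41.1 to 50.4 FPKM in Bcl11bm/m and from 9.44 to 56.6 FPKM in Bcl11bfl/fl:Cd4-Cre libraries.

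Itgb7, Itga4 and Itgb3 rose and Itga6 and Itgb1 fell in Bcl11bm/m relative to wild-type, whereas Itgal, Itgb2 and Itgav did not pass the test and Itgae was under the filter on low values. Deletion in Bcl11bfl/fl:Cd4-Cre thymocytes went with a rise of Itgb7 and Itgb3 and a fall of Itga6. In bulk RNA, a different make-up of the sorted cells and a different amount of RNA per cell cannot be told apart. Of the 9 genes, 8 reached the filter of a mean of 1 FPKM over the 12 libraries and were tested with limma on log2(FPKM + 1), with Benjamini-Hochberg adjustment over all 10780 features tested and a threshold of 0.05. In Bcl11bm/m against wild-type, 5 of the 8 passed, beside 17.3% of all features, with 3 higher beside 9.92% and 2 lower beside 7.39%. Against wild-type, 3 of the 8 passed for Bcl11bfl/fl:Cd4-Cre, beside 14.5% of all features, with 2 higher beside 4.65% and 1 lower beside 9.86%. Between the mutants, 0 of the 8 passed by limma and 3 had an unadjusted p under 0.05, beside 10.2% of all features passing, 7.63% higher in Bcl11bm/m and 2.60% lower. Itgb3 reached the filter only through the mutant libraries and could hardly have been tested without differing. Without it, 4 of 7 passed in Bcl11bm/m and 2 of 7 in Bcl11bfl/fl:Cd4-Cre. The counts were also 5 of 8 without Bcl11bm/m replicate 1 and 3 of 8 without Bcl11bfl/fl:Cd4-Cre replicate 3, libraries that stood apart in markers of other cells or stages. Bcl11bfl/fl:Cd4-Cre replicate 1 stood apart in such markers too, and without it Itgb3 was no longer called in Bcl11bfl/fl:Cd4-Cre. That call was lost as well without wild-type replicate 2, 3, 4 or 5. Both mutants were compared with the same wild-type libraries, so their differences from wild-type are not independent. On the log2 scale, the median difference from wild-type over the 8 tested genes was 0.187 for Bcl11bm/m and 0.237 for Bcl11bfl/fl:Cd4-Cre, and that between the mutants was 0.0305, beside -0.021, -0.091 and 0.091 over all features.

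**Figure D1:**
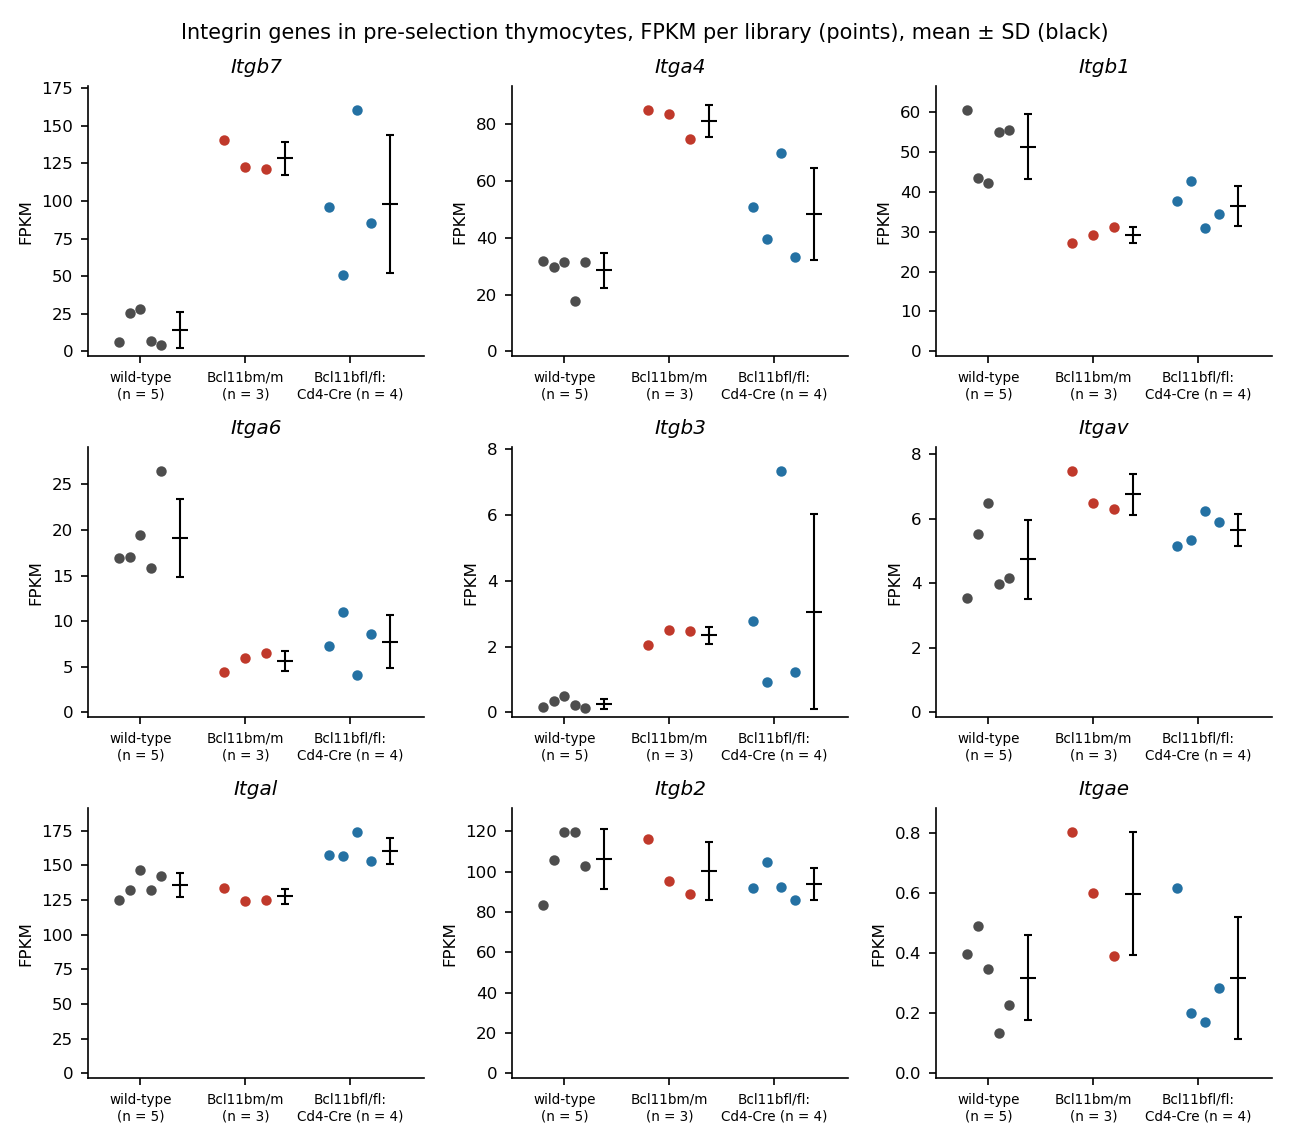
FPKM of the 9 integrin genes in each library (points), grouped by genotype, with the group mean and SD in black; each panel has its own linear axis. Itgb7 sits between 4.32 and 28.4 FPKM in wild-type and between 51.1 and 160 FPKM in the mutants, while Itga6 lies at 15.8 FPKM or more in wild-type and at 10.99 FPKM or less in the mutants.

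In wild-type DP thymocytes, the LFA-1 chains were the most abundant of the 9 genes, with mean levels of 136 FPKM for Itgal and 106 FPKM for Itgb2. Itgb1 followed with a mean level of 51.2 FPKM, and then Itga4 with 28.5, Itga6 with 19.1, Itgb7 with 14.3 and Itgav with 4.74 FPKM. The last places went to Itgae, with a mean level of 0.320 FPKM, and Itgb3, with 0.272 FPKM. Neighbours in this order overlapped between libraries from Itga4 down to Itgav and again for Itgae and Itgb3, while Itgal, Itgb2, Itgb1 and Itga4 did not overlap with each other. In Bcl11bm/m libraries, Itgb7 and Itgal led together with mean levels of 128 FPKM each and overlapped, and Itga6 was below Itgav with overlap. In Bcl11bfl/fl:Cd4-Cre libraries, Itgal led with a mean level of 160 FPKM, and Itgb7 overlapped both with Itgal above it and with Itgb2 below it.

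Upstream sequences are shown for Itgb7, Itga4 and Itgb1, the alpha 4 chain and its alternative beta chains. The RefSeq promoter table, on GRCm38.p6, held an entry for 4 of the 9 genes, and for each the 250 bases before the annotated start are read 5′ to 3′ on the gene's own strand. The windows are chr15:102231936-102232185 (minus strand) for Itgb7, chr2:79255176-79255425 (plus strand) for Itga4 and chr8:128685404-128685653 (plus strand) for Itgb1. Capitals mark matches to the Runx core, searched as ACCACA or ACCGCA, and to the SMAD box, searched as CAGACA or GTCTAGAC, on both strands, and no match overlapped another.
Itgb7: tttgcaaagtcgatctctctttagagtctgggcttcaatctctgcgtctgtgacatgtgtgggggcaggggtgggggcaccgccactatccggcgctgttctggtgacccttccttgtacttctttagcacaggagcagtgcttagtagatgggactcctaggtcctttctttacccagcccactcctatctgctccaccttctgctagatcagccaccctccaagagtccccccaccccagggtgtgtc
Itga4: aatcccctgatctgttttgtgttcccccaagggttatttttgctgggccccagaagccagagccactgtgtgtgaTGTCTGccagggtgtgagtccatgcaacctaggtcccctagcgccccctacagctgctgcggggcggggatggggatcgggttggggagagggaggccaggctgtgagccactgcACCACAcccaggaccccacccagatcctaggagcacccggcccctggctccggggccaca
Itgb1: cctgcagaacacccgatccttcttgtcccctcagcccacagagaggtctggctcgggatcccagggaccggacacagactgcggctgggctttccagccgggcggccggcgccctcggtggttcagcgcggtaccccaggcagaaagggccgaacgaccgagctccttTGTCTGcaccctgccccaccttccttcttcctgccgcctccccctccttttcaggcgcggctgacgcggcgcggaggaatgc
The Itga4 window held 1 Runx core, 60 to 55 bases before the start, and 1 SMAD box as its reverse complement, 175 to 170 bases before it. The Itgb1 window held 1 SMAD box, 82 to 77 bases before the start, and the Itgb7 window held neither motif in these letters. Among 32817 promoter windows of the same length, 18.6% held a Runx core and 17.3% a SMAD box. The G and C content was 56.0% for Itgb7, 64.0% for Itga4 and 68.0% for Itgb1, beside a median of 52.4% over all windows. The fourth entry, Itgav, held no match, and Itgae, Itgal, Itgb2, Itga6 and Itgb3 had no entry.

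Itgb7 encodes the beta chain shared by CD103 and by the gut-homing receptor alpha 4 beta 7, and it lies on chromosome 15 from 102046426 to 102062366 on the minus strand of NCBIM37 (mm9). Expression in wild-type libraries was 6.05, 25.7, 28.4, 6.81 and 4.32 FPKM, that in Bcl11bm/m libraries 141, 123 and 121 FPKM and that in Bcl11bfl/fl:Cd4-Cre libraries 95.7, 51.1, 160 and 85.04 FPKM, each in the order of the replicates. All mutant libraries were above all wild-type libraries, and wild-type replicates 2 and 3 stood well above the other 3 wild-type libraries. The mean level was 14.3 ± 11.75 FPKM (SD, n = 5) in wild-type, 128 ± 10.8 FPKM (n = 3) in Bcl11bm/m and 98.0 ± 45.6 FPKM (n = 4) in Bcl11bfl/fl:Cd4-Cre. Itgb7 rose in Bcl11bm/m by 3.45 on the log2 scale (SE 0.59, limma adjusted p = 0.00561), a ratio of means of 9.0. It rose in Bcl11bfl/fl:Cd4-Cre by 2.95 (SE 0.55, limma adjusted p = 0.00925), a ratio of means of 6.88. The mutants overlapped, and the difference between them was 0.50 on the log2 scale, with a 95% interval from -0.29 to 1.28 (limma adjusted p = 0.371). The pair of wild-type libraries with Xist held 25.7 and 28.4 FPKM, the pair with Y-linked genes 4.32 and 6.81 FPKM, and replicate 1, with neither, 6.05 FPKM. Among libraries with Xist, Itgb7 was 141 FPKM in Bcl11bm/m and from 51.1 to 160 FPKM in Bcl11bfl/fl:Cd4-Cre, and among libraries with Y-linked genes it was from 121 to 123 FPKM and 85.04 FPKM. Both mutants were thus above wild-type among libraries with Xist and among those with Y-linked genes, as values with no test, and no mutant library had neither.

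Itga4, the alpha chain of VLA-4 and of alpha 4 beta 7, lies on chromosome 2 from 79095583 to 79173280 on the plus strand. It overlaps Cerkl on the minus strand, and their reads cannot be told apart if the library did not keep strand, which the sources describe in conflicting ways. Wild-type libraries held 31.8, 29.8, 31.6, 17.7 and 31.6 FPKM, Bcl11bm/m libraries 84.8, 83.4 and 74.6 FPKM and Bcl11bfl/fl:Cd4-Cre libraries 50.9, 39.5, 69.7 and 33.2 FPKM. The 3 groups did not overlap with each other, with wild-type lowest, Bcl11bfl/fl:Cd4-Cre between and Bcl11bm/m highest, and wild-type replicate 4 lay apart below the other wild-type libraries. Itga4 rose in Bcl11bm/m by 1.503 on the log2 scale (SE 0.20, limma adjusted p = 0.00151), from 28.5 ± 6.07 FPKM (SD, n = 5) to 80.9 ± 5.54 FPKM (n = 3). In Bcl11bfl/fl:Cd4-Cre, at 48.3 ± 16.04 FPKM (n = 4), the difference was 0.72 (SE 0.24) and did not pass (limma adjusted p = 0.0707), although it passed with all 3 groups in 1 fit (adjusted p = 0.0396) and with library quality weights (adjusted p = 0.0335). Between the mutants it differed by 0.79, with a 95% interval from 0.23 to 1.34 (limma adjusted p = 0.0775). Without Bcl11bfl/fl:Cd4-Cre replicate 3, the highest of its group, this difference was 0.98 (limma adjusted p = 0.0199).

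Itgb1 encodes the beta chain that most alpha chains of matrix receptors use, and lies on chromosome 8 from 131209554 to 131257100 on the plus strand. Expression in wild-type libraries was 60.3, 43.3, 42.1, 54.8 and 55.4 FPKM, that in Bcl11bm/m libraries 27.0, 29.1 and 31.1 FPKM and that in Bcl11bfl/fl:Cd4-Cre libraries 37.5, 42.6, 31.0 and 34.3 FPKM. The lowest wild-type values were in replicates 2 and 3, the libraries with the highest Itgb7 in wild-type, and of the mutant libraries only Bcl11bfl/fl:Cd4-Cre replicate 2 reached the wild-type range. Itgb1 fell by 0.78 on the log2 scale in Bcl11bm/m (SE 0.14, limma adjusted p = 0.00736), from 51.2 ± 8.08 FPKM (SD, n = 5) to 29.0 ± 2.02 FPKM (n = 3). In Bcl11bfl/fl:Cd4-Cre, at 36.3 ± 4.94 FPKM (n = 4), the difference was -0.48 (SE 0.14) and stood just outside the threshold (limma adjusted p = 0.052). It passed without wild-type replicate 3 (-0.54, limma adjusted p = 0.0498), without Bcl11bfl/fl:Cd4-Cre replicate 2 (-0.56, limma adjusted p = 0.0406) and with all 3 groups in 1 fit (adjusted p = 0.0278).

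Itga6, the laminin-binding alpha chain that pairs with beta 1 in T cells, lies on chromosome 2 from 71583673 to 71696473 on the plus strand. Wild-type libraries held 17.0, 17.0, 19.4, 15.8 and 26.4 FPKM, Bcl11bm/m libraries 4.47, 5.99 and 6.55 FPKM and Bcl11bfl/fl:Cd4-Cre libraries 7.30, 10.99, 4.13 and 8.64 FPKM. Every mutant library was below every wild-type library, and the mutants overlapped. Itga6 fell by 1.58 on the log2 scale in Bcl11bm/m (SE 0.19, limma adjusted p = 0.00102), to 0.296 of the wild-type mean. It fell by 1.24 in Bcl11bfl/fl:Cd4-Cre (SE 0.24, limma adjusted p = 0.0101), to 0.406 of the wild-type mean. Between the mutants it differed by -0.34, with a 95% interval from -1.01 to 0.32 (limma adjusted p = 0.466). Among Bcl11bfl/fl:Cd4-Cre libraries, the one with the least Itga6, replicate 3, also had the most Itgb7, Itga4 and Itgb3 and the least Itgb1.

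**Figure D2:**
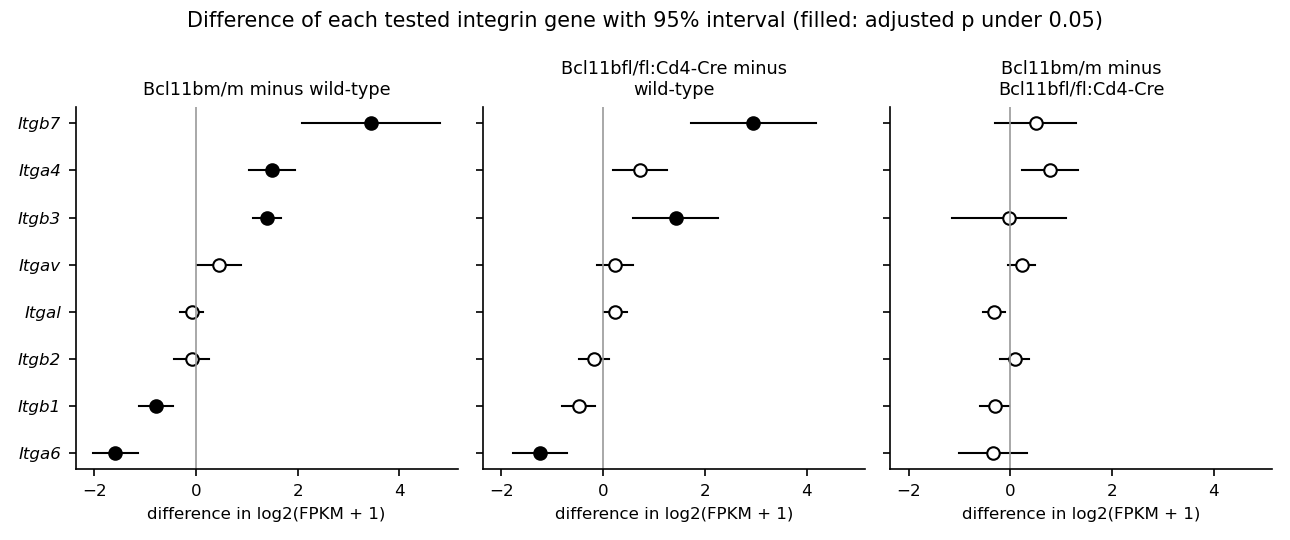
Difference in log2(FPKM + 1) of the 8 tested integrin genes in 3 comparisons (points, with 95% intervals; filled points have an adjusted p under 0.05). Itgb7 has the largest difference from wild-type in both mutants, 3.45 and 2.95, Itga6 the lowest, -1.58 and -1.24, and no point is filled between the mutants.

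Itgae, the CD103 alpha chain, lies on chromosome 11 from 72904085 to 72960948 on the plus strand and was close to 0 in every group, although its partner Itgb7 was among the most abundant integrin genes of the mutants. Expression in wild-type libraries was 0.398, 0.492, 0.347, 0.135 and 0.227 FPKM, that in Bcl11bm/m libraries 0.805, 0.602 and 0.392 FPKM and that in Bcl11bfl/fl:Cd4-Cre libraries 0.617, 0.2002, 0.173 and 0.285 FPKM. The groups overlapped, and no test was made because the mean over the 12 libraries, 0.389 FPKM, was under the filter. About 2 to 15 fragments stood behind each value, and 108 in Bcl11bfl/fl:Cd4-Cre replicate 1, as estimated from the depth and the longest coding transcript, so that a modest difference was not detectable at this depth. Gsg2 lies within Itgae on the minus strand, and its reads could be counted for Itgae without strand. The log2 ratio of Itgae to Itgb7 was -6.35 to -3.93 in wild-type, -8.27 to -7.45 in Bcl11bm/m and -9.85 to -7.28 in Bcl11bfl/fl:Cd4-Cre, so that Itgae was far below its partner in each library.

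The LFA-1 chains, which let thymocytes and T cells bind ICAMs on other cells, passed the test in none of the 3 comparisons. Itgal, on chromosome 7 from 134439774 to 134478651 on the plus strand, had levels of 125, 132, 147, 132 and 142 FPKM for wild-type, 134, 124 and 125 FPKM for Bcl11bm/m and 157, 157, 174 and 153 FPKM for Bcl11bfl/fl:Cd4-Cre libraries. The Bcl11bfl/fl:Cd4-Cre libraries were above all others, while the other groups overlapped. The difference of Itgal was -0.09 in Bcl11bm/m, with a 95% interval from -0.31 to 0.14 (limma adjusted p = 0.605). It was 0.24 in Bcl11bfl/fl:Cd4-Cre, with an interval from 0.01 to 0.47 (limma adjusted p = 0.148), and -0.33 between the mutants, with an interval from -0.54 to -0.11 (limma adjusted p = 0.0637). Both of the last differences passed under median-ratio scaling, quantile normalization and removal of short RNA features, and under the first of these they were 0.35 (limma adjusted p = 0.0333) and -0.44 (limma adjusted p = 0.022).

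Itgb2, the common beta chain of leukocyte integrins, lies on chromosome 10 from 76992997 to 77028453 on the plus strand. Its level was 83.4, 106, 120, 120 and 103 FPKM for wild-type, 116, 95.4 and 88.9 FPKM for Bcl11bm/m and 91.7, 105, 92.45 and 85.97 FPKM for Bcl11bfl/fl:Cd4-Cre libraries. All 3 groups overlapped. The difference was -0.08 in Bcl11bm/m, with a 95% interval from -0.43 to 0.27 (limma adjusted p = 0.769). For Bcl11bfl/fl:Cd4-Cre it was -0.17, with an interval from -0.46 to 0.12 (limma adjusted p = 0.418).

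Itgb3, the beta chain of the vitronectin receptor and of the platelet fibrinogen receptor, lies on chromosome 11 from 104469370 to 104531790 on the plus strand. Wild-type libraries held 0.157, 0.354, 0.494, 0.233 and 0.124 FPKM, Bcl11bm/m libraries 2.05, 2.52 and 2.48 FPKM and Bcl11bfl/fl:Cd4-Cre libraries 2.77, 0.937, 7.33 and 1.22 FPKM. Every mutant library was above the wild-type libraries, and Bcl11bfl/fl:Cd4-Cre replicate 3 was well above the rest of its group. Itgb3 rose by 1.40 on the log2(FPKM + 1) scale in Bcl11bm/m (SE 0.12, limma adjusted p = 0.000174) and by 1.43 in Bcl11bfl/fl:Cd4-Cre (SE 0.37, limma adjusted p = 0.0325). An estimated 4 to 12 fragments stood behind each wild-type value and 32 to 735 behind each mutant value, and this scale understates the change of so low a gene. The call in Bcl11bfl/fl:Cd4-Cre held without replicate 3 of that group (0.999, limma adjusted p = 0.0336). It was lost without wild-type replicate 2 (1.45, adjusted p = 0.0602), replicate 3 (1.49, 0.0521), replicate 4 (1.42, 0.0613) or replicate 5 (1.39, 0.0739), without Bcl11bfl/fl:Cd4-Cre replicate 1 (1.38, 0.0899), when low features were not filtered out (adjusted p = 0.109) and under quantile normalization (1.27, 0.0503). Of 6 markers of megakaryocytes and platelets, Ppbp, Gp6 and Treml1 were at 0 in all 12 libraries, Pf4 was listed only in Bcl11bm/m replicates 1 and 2, Gp9 only in Bcl11bfl/fl:Cd4-Cre replicates 1 and 3, and the summed level was 0.298 to 1.04 FPKM in wild-type, 1.82 to 2.07 in Bcl11bm/m and 0.612 to 1.22 in Bcl11bfl/fl:Cd4-Cre.

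Itgav, which can pair with Itgb3 or Itgb1 and with which latent TGF-beta can be activated, lies on chromosome 2 from 83564554 to 83647073 on the plus strand. Its level was 3.54, 5.52, 6.47, 3.99 and 4.17 FPKM for wild-type, 7.47, 6.47 and 6.30 FPKM for Bcl11bm/m and 5.14, 5.33, 6.23 and 5.88 FPKM for Bcl11bfl/fl:Cd4-Cre libraries. Wild-type replicate 2 lay within the range of Bcl11bfl/fl:Cd4-Cre, replicate 3 above that range and within that of Bcl11bm/m, and the other wild-type libraries were below both mutants. The difference was 0.45 in Bcl11bm/m, with a 95% interval from 0.03 to 0.88 (limma adjusted p = 0.141), and 0.23 in Bcl11bfl/fl:Cd4-Cre, with an interval from -0.13 to 0.59 (limma adjusted p = 0.364).

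The most abundant beta chains were Itgb2 and Itgb1 in each wild-type library and Itgb2 and Itgb7 in each mutant library. Of the summed FPKM of 8 beta chain genes in a library, Itgb7 took 2.65 to 14.8% in wild-type, 49.0 to 49.7% in Bcl11bm/m and 25.6 to 55.05% in Bcl11bfl/fl:Cd4-Cre. Itgb1 took 21.96 to 40.2%, 9.41 to 12.7% and 10.6 to 21.3% in the same order, so that its share did not overlap between wild-type and either mutant. Itgb2 took 55.5 to 65.6% in wild-type, 36.4 to 40.6% in Bcl11bm/m and 31.8 to 52.5% in Bcl11bfl/fl:Cd4-Cre, although its own level overlapped between the groups. The sum itself was 150 to 192 FPKM in wild-type, 244 to 287 FPKM in Bcl11bm/m and 200 to 291 FPKM in Bcl11bfl/fl:Cd4-Cre.

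Among 18 alpha chain genes, Itgal took the largest share in every library. Its share was 66.4 to 73.7% in wild-type, 49.6 to 51.6% in Bcl11bm/m and 62.7 to 70.2% in Bcl11bfl/fl:Cd4-Cre. Itga4 took 9.90 to 17.05%, 30.8 to 33.3% and 14.9 to 25.1% in these groups, and Itga6 took 8.86 to 12.4%, 1.68 to 2.71% and 1.49 to 4.92%. The Itga6 share was thus below wild-type in both mutants, while the Itga4 share stood apart from wild-type in Bcl11bm/m and overlapped with it in Bcl11bfl/fl:Cd4-Cre. These shares are descriptions with no test.

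**Figure D3:**
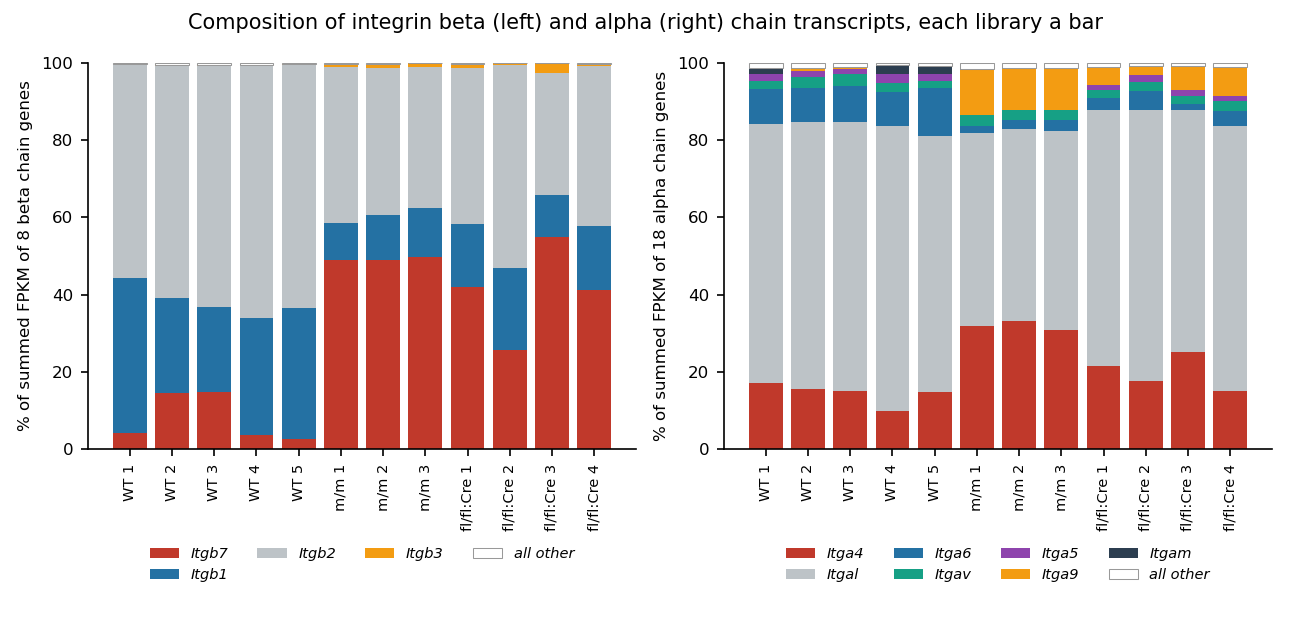
Share of each gene in the summed FPKM of 8 integrin beta chain genes (left) and 18 alpha chain genes (right), in percent, each bar a library (WT, wild-type; m/m, Bcl11bm/m; fl/fl:Cre, Bcl11bfl/fl:Cd4-Cre). Itgb7 holds at most 14.8% of beta chains in wild-type and at least 25.6% in the mutants, and Itga9 holds 10.6 to 11.7% of alpha chains in Bcl11bm/m.

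The balance of alpha to beta chains was taken within 7 known dimers. The log2 ratio of Itga4 to Itgb7 was 0.16 to 2.87 in wild-type, -0.73 to -0.56 in Bcl11bm/m and -1.36 to -0.37 in Bcl11bfl/fl:Cd4-Cre, so Itga4 was above Itgb7 in every wild-type library and below it in every mutant library. The log2 ratio of Itga4 to Itgb1 was -1.63 to -0.41 in wild-type, 1.26 to 1.65 in Bcl11bm/m and -0.11 to 1.17 in Bcl11bfl/fl:Cd4-Cre, with no overlap with wild-type. For Itga6 to Itgb1 it was -1.83 to -1.07 in wild-type, -2.59 to -2.25 in Bcl11bm/m and -2.91 to -1.95 in Bcl11bfl/fl:Cd4-Cre, so the alpha chain was lower relative to its partner in the mutants. For Itgal to Itgb2 it was 0.14 to 0.59 in wild-type, 0.20 to 0.49 in Bcl11bm/m and 0.58 to 0.91 in Bcl11bfl/fl:Cd4-Cre, so the mutants did not overlap with each other. For Itgav to Itgb3 it was 3.71 to 5.08 in wild-type, 1.35 to 1.87 in Bcl11bm/m and -0.24 to 2.51 in Bcl11bfl/fl:Cd4-Cre, and only Bcl11bfl/fl:Cd4-Cre replicate 3 had more Itgb3 than Itgav. For Itgav to Itgb1 it was -4.09 to -2.70, -2.30 to -1.86 and -3.00 to -2.31 in the same order of groups.

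**Figure D4:**
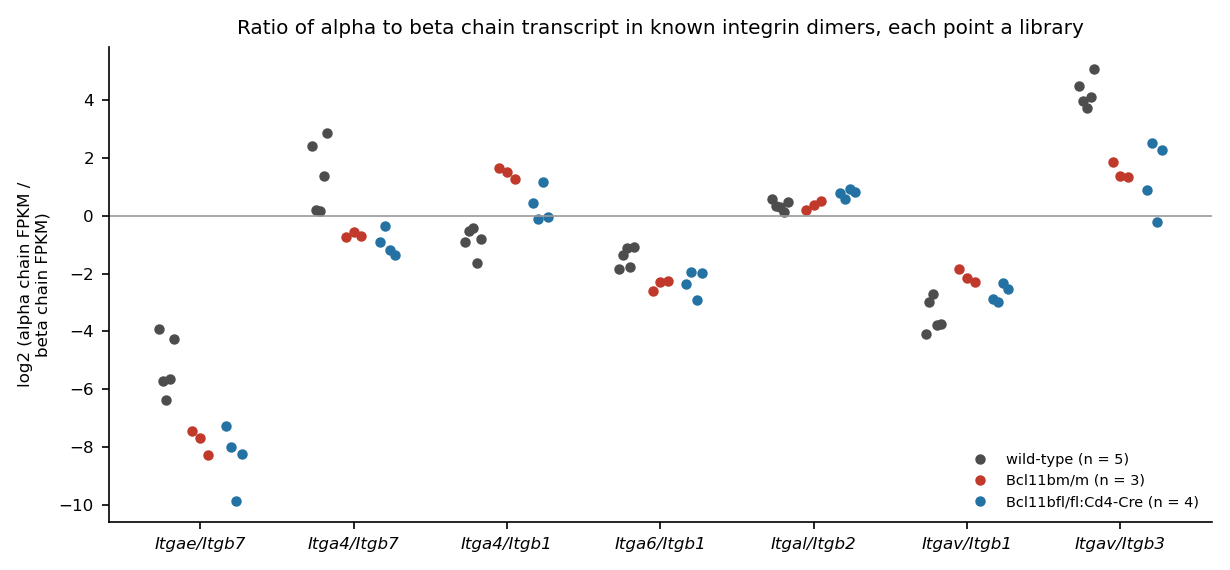
Log2 ratio of alpha chain FPKM to beta chain FPKM for 7 known integrin dimers, each point a library, colored by genotype; 0 marks equal levels. The Itgae/Itgb7 ratio is at most -3.93 in every library, and the Itga4/Itgb7 ratio is above 0 in wild-type and below 0 in both mutants.

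Ratios of chains with a common partner, chosen after the values were seen, did not overlap between wild-type and the mutants. The log2 ratio of Itgb7 to Itgb1, which both pair with alpha 4, was -3.32, -0.75, -0.57, -3.01 and -3.68 in wild-type, 2.38, 2.08 and 1.97 in Bcl11bm/m, and 1.35, 0.26, 2.37 and 1.31 in Bcl11bfl/fl:Cd4-Cre libraries. Itgb1 exceeded Itgb7 in all wild-type libraries and Itgb7 exceeded Itgb1 in all mutant libraries. The log2 ratio of Itga4 to Itga6, which both use beta 1, was 0.16 to 0.90 in wild-type, 3.51 to 4.25 in Bcl11bm/m and 1.84 to 4.08 in Bcl11bfl/fl:Cd4-Cre.

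Of 17 other integrin genes, 3 reached the filter. Itga9, on chromosome 9 from 118515808 to 118810121, encodes a close relative of alpha 4 that pairs with beta 1. Its level was 0.347, 0.737, 0.516, 0.251 and 0.199 FPKM for wild-type, 31.2, 26.6 and 26.1 FPKM for Bcl11bm/m and 10.3, 4.67, 16.6 and 16.4 FPKM for Bcl11bfl/fl:Cd4-Cre libraries, with no overlap between any groups. Itga9 rose by 4.37 on the log2(FPKM + 1) scale in Bcl11bm/m (SE 0.15, limma adjusted p = 1.35e-06) and by 3.08 in Bcl11bfl/fl:Cd4-Cre (SE 0.31, limma adjusted p = 0.0013). Like Itgb3, it reached the filter only through the mutants. Between the mutants it differed by 1.29, with a 95% interval from 0.39 to 2.19 (limma adjusted p = 0.0763), and passed without Bcl11bfl/fl:Cd4-Cre replicate 2 (0.93, limma adjusted p = 0.0469) with all 3 groups in 1 fit (adjusted p = 0.0295) and with library quality weights (adjusted p = 0.0345).

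Itga5, on chromosome 15 from 103174720 to 103197194, encodes the alpha chain of the fibronectin receptor alpha 5 beta 1. Its level was 3.35, 2.99, 2.71, 4.34 and 3.47 FPKM for wild-type, 0.351, 0.116 and 0 FPKM for Bcl11bm/m and 3.02, 3.78, 4.34 and 2.79 FPKM for Bcl11bfl/fl:Cd4-Cre libraries. The Bcl11bm/m libraries were below all others, and Bcl11bfl/fl:Cd4-Cre overlapped with wild-type. With a mean level of 0.156 FPKM in Bcl11bm/m, Itga5 reached the filter only through wild-type and Bcl11bfl/fl:Cd4-Cre, the groups where it was high. Itga5 fell by 1.92 on the log2(FPKM + 1) scale in Bcl11bm/m (SE 0.15, limma adjusted p = 0.000122) and was lower there than in Bcl11bfl/fl:Cd4-Cre, with a difference of -1.95 (SE 0.175, limma adjusted p = 0.00171). From wild-type, Bcl11bfl/fl:Cd4-Cre differed in Itga5 by 0.03, with a 95% interval from -0.31 to 0.38 (limma adjusted p = 0.907). Itgam, a myeloid alpha chain, was at 0.760 to 4.63 FPKM in wild-type and at 0.527 to 0.791 FPKM in the mutants, and differed by -0.97 in Bcl11bm/m (limma adjusted p = 0.14) and by -0.99 in Bcl11bfl/fl:Cd4-Cre (limma adjusted p = 0.0811). It reached the filter only through wild-type, the group where it was high, and in Bcl11bfl/fl:Cd4-Cre it passed under quantile normalization (-1.20, limma adjusted p = 0.0375), with all 3 groups in 1 fit (adjusted p = 0.0493) and without wild-type replicate 2 (-1.21, adjusted p = 0.0421).

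**Figure D5:**
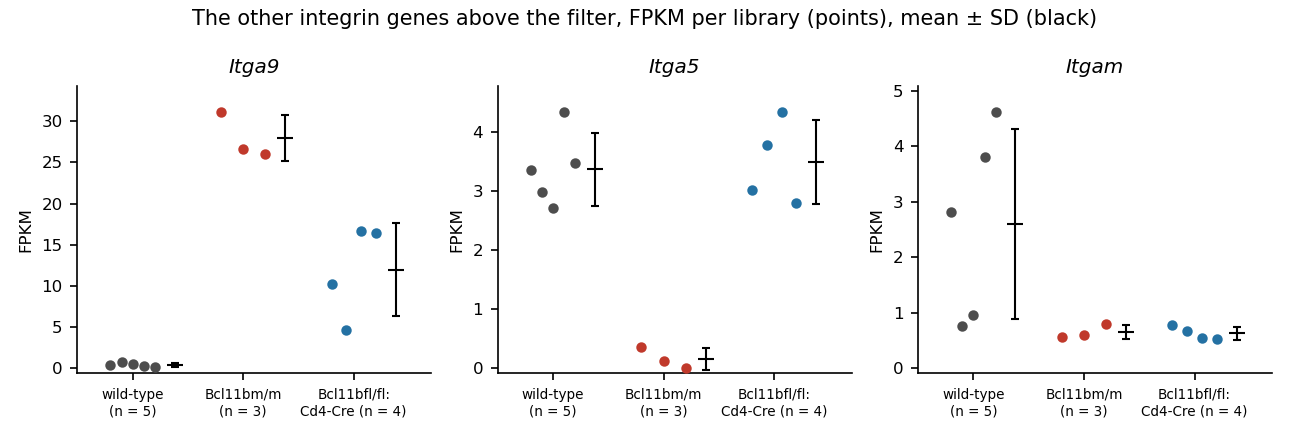
FPKM of the 3 other integrin genes above the filter in each library (points), with the group mean and SD in black, on linear axes. Itga9 is at most 0.737 FPKM in wild-type and at least 4.67 FPKM in the mutants, and Itga5 is at most 0.351 FPKM in Bcl11bm/m only.

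Some of the genes that act around the integrins also changed. Of 52 genes for integrin activation and adaptors, 43 were tested, and 8 rose and 3 fell in Bcl11bm/m, beside 9.92% higher and 7.39% lower of all features. Their median difference was 0.0304 on the log2 scale, beside -0.021 over all features. The tetraspanins Cd9, which rose by 2.74 (limma adjusted p = 0.00102), and Cd82, which rose by 2.47 (0.0019), led these, followed by the adaptor Skap2 (1.48, 0.00572) and Cyth1 (1.24, 0.0145), whose product binds the beta 2 tail. Tns1, a link from integrin tails to actin, fell by 1.27 (limma adjusted p = 0.00694), the kinase gene Ptk2b by 0.49 (0.0193) and Apbb1ip, which encodes the Rap1 effector RIAM, by 0.38 (0.0497). The calls of Ptk2b and Apbb1ip held in 5 and in 2 of 8 fits that left out a library, with adjusted p-values up to 0.0721 and 0.171. That of Cyth1 was lost without Bcl11bm/m replicate 1 (1.09, limma adjusted p = 0.0617) and with no filter on low values (0.0537). Ptk2b was also lost without short RNA features (adjusted p = 0.0784). Apbb1ip was also lost with no filter, a filter of 5 FPKM, quantile normalization, removal of short RNA features and all 3 groups in 1 fit, with adjusted p-values up to 0.184.

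Of these 43 genes, 5 rose in Bcl11bfl/fl:Cd4-Cre and 2 fell, beside 4.65% higher and 9.86% lower of all features, and their median difference was 0.2, beside -0.091. Cd82 rose by 2.24 (limma adjusted p = 0.00694), Cyth1 by 1.23 (0.00927) and Vcl, which encodes vinculin, by 0.96 (0.00735). Lims1, which encodes the adaptor PINCH1, fell by 0.50 (limma adjusted p = 0.0223) and kept its call in 4 of 9 fits that left out a library, with adjusted p-values up to 0.07. Between the mutants 2 were higher and 2 lower in Bcl11bm/m, beside 10.2% of all features called, a share like that of the list. Fyb, which encodes ADAP, and Cd47 were higher by 0.66 (limma adjusted p = 0.0172) and 0.60 (0.0252), and Dok2 differed by -0.67 (0.0428). The calls of Fyb and Cd47 held in 5 and 2 of 7 fits that left out a library, with adjusted p-values up to 0.0656 and 0.0784, and that of Dok2 in 0, with adjusted p-values up to 0.107. With no filter on low values, Cd47 (adjusted p = 0.0519) and Dok2 (0.106) were also lost. Dok2 was lost as well with a filter of 5 FPKM (0.0503) and with all 3 groups in 1 fit (0.0905).

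Of 20 ligand genes of integrins, 5 were tested. In Bcl11bm/m 2 rose and 1 fell, beside 9.92% higher and 7.39% lower of all features. In Bcl11bfl/fl:Cd4-Cre 1 rose and 1 fell, beside 4.65% and 9.86%. Between the mutants 1 was higher and 1 lower in Bcl11bm/m, beside 7.63% and 2.60%. Icam1, the ligand of LFA-1, rose in both mutants, by 1.61 in Bcl11bm/m (limma adjusted p = 0.0107) and by 1.27 in Bcl11bfl/fl:Cd4-Cre (0.023). The last of these was lost without wild-type replicate 5 or Bcl11bfl/fl:Cd4-Cre replicates 1, 3 or 4, with adjusted p-values up to 0.0716. With no filter on low values it was lost as well (limma adjusted p = 0.0887). Vcam1, a ligand of the alpha 4 integrins, was at 0.270 to 1.18 FPKM in wild-type, at 1.63 to 5.49 FPKM in Bcl11bm/m and at 0.0285 to 0.115 FPKM in Bcl11bfl/fl:Cd4-Cre. It rose by 1.22 in Bcl11bm/m (limma adjusted p = 0.0249), fell by 0.78 in Bcl11bfl/fl:Cd4-Cre (0.021) and differed between the mutants by 2.0 (0.0101). Vcam1 reached the filter only through Bcl11bm/m, the group where it was high, so its comparisons with that group could hardly have shown no difference. The rise was lost without Bcl11bm/m replicate 1 or 2, with adjusted p-values up to 0.097, and with no filter on low values (0.0884). The fall was lost without wild-type replicate 5 or Bcl11bfl/fl:Cd4-Cre replicate 4, with adjusted p-values up to 0.0536. Lamc1, a laminin chain gene, fell by 1.99 in Bcl11bm/m (limma adjusted p = 0.00148), where it was also lower than in Bcl11bfl/fl:Cd4-Cre, with a difference of -2.03 (0.00444). With a mean level of 0.312 FPKM in Bcl11bm/m, Lamc1 reached the filter only through wild-type and Bcl11bfl/fl:Cd4-Cre, the groups where it was high. Madcam1 was listed at 0 in all 12 libraries, and Cdh1, the ligand of CD103, was at most 2.26 FPKM and under the filter.

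TGF-beta is known to induce CD103 in T cells, and 13 of 15 genes of its pathway were tested. Of the 13, 2 rose and 1 fell in Bcl11bm/m, beside 9.92% higher and 7.39% lower of all features. In Bcl11bfl/fl:Cd4-Cre 1 rose and 0 fell, beside 4.65% and 9.86%. Between the mutants 1 was higher and 1 lower in Bcl11bm/m, beside 7.63% and 2.60%. In Bcl11bm/m, Tgfb3 rose by 2.07 (limma adjusted p = 3.9e-05), the co-repressor gene Ski rose by 0.61 (0.0393) and the co-receptor gene Tgfbr3 fell by 1.99 (0.000429). Tgfb3 was at most 0.305 FPKM in wild-type and reached the filter only through the mutant libraries, so that it could hardly have been tested without differing. With a mean level of 0.721 FPKM in Bcl11bm/m, Tgfbr3 reached the filter only through wild-type and Bcl11bfl/fl:Cd4-Cre, the groups where it was high. The Ski call held in 2 of 8 fits that left out a library, with adjusted p-values up to 0.133. Smad3, a transcription factor of the pathway, rose by 1.61 in Bcl11bfl/fl:Cd4-Cre (limma adjusted p = 0.000522), from 13.2 to 15.6 FPKM in wild-type to 38.4 to 56.4 FPKM. Between the mutants Smad3 differed by -1.48 (limma adjusted p = 0.00225), and Tgfbr1, a receptor gene, was higher in Bcl11bm/m by 0.68 (0.0244). This Tgfbr1 call held in 3 of 7 fits that left out a library, with adjusted p-values up to 0.0939. It was also lost with no filter on low values, median-ratio scaling, quantile normalization and removal of short RNA features, with adjusted p-values up to 0.066. Runx3, which encodes a factor known to act on Itgae in CD8 lineage cells, was at 1.97 to 6.40 FPKM in wild-type, 14.2 to 18.3 FPKM in Bcl11bm/m and 11.5 to 34.7 FPKM in Bcl11bfl/fl:Cd4-Cre, and rose by 1.82 and 2.11 on the log2 scale in the mutants (limma adjusted p = 0.00437 and 0.00581).

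Markers of other stages and cell types also differed between the genotypes. The 10 markers of pre-selection DP thymocytes were all above 1 FPKM in each group mean, and 5 fell in Bcl11bm/m (Cd4, Cd8b1, Rag2, Cd24a and Arpp21) and 2 in Bcl11bfl/fl:Cd4-Cre (Cd24a and Themis), beside 7.39% and 9.86% of all features. Their summed level was 5207 to 6920 FPKM in wild-type, 3924 to 4452 FPKM in Bcl11bm/m and 3615 to 5669 FPKM in Bcl11bfl/fl:Cd4-Cre. Of 6 markers of early thymocytes, Il2ra, Kit, Hes1 and Lyl1 rose and Ptcra fell in Bcl11bm/m, beside 9.92% higher and 7.39% lower of all features, and Hes1 and Lyl1 rose in Bcl11bfl/fl:Cd4-Cre, beside 4.65% higher. Their summed level was 41.1 to 55.4 FPKM, 58.1 to 180.2 FPKM and 39.7 to 135 FPKM in the same order of groups.

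Of 7 markers of mature thymocytes, 4 rose in Bcl11bm/m (S1pr1, Klf2 and Il7r among them), beside 9.92% of all features, and Cd69 and Itm2a had mean levels of 14.7 and 16.4 FPKM there against 23.5 and 20.2 FPKM in wild-type without passing the test. In Bcl11bfl/fl:Cd4-Cre 3 rose (S1pr1, Klf2 and Il7r), beside 4.65%, and Cd69 fell. Their summed level was 96.4 to 163 FPKM in wild-type, 238 to 353 FPKM in Bcl11bm/m and 74.6 to 191 FPKM in Bcl11bfl/fl:Cd4-Cre, and none was at 0 in a whole group. S1pr1, Il7r, Kit, Hes1, Lyl1, Cd163l1, 5830411N06Rik, Cd79a and Mpeg1 had wild-type means under 1 FPKM and reached the filter only through the mutants, Mpeg1 through Bcl11bm/m alone, so their calls were close to fixed by the filter.

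The 5 markers of gamma-delta T cells summed to 0.344 to 1.23 FPKM in wild-type, 111 to 153 FPKM in Bcl11bm/m and 4.78 to 82.2 FPKM in Bcl11bfl/fl:Cd4-Cre. Nearly all of the Bcl11bm/m sum was Cd163l1, at 36.3 to 60.8 FPKM, and 5830411N06Rik, at 48.3 to 91.2 FPKM, while Sox13 had a mean level of 0.241 FPKM there against 0.198 FPKM in wild-type and Blk 0.334 against 0.0921 FPKM. Bcl11bfl/fl:Cd4-Cre replicate 1 had the highest sum of its group and stood apart in all 5 markers. It held Sox13 at 13.9, Maf at 12.4, Blk at 9.91, Cd163l1 at 13.4 and 5830411N06Rik at 32.7 FPKM. Without this library the Itgb3 call in Bcl11bfl/fl:Cd4-Cre was lost, as given above. The 7 markers of NK and innate lymphoid cells summed to 31.0 to 47.8, 57.3 to 72.9 and 35.2 to 77.4 FPKM. Most of each sum was Gata3, which T cells also express, at 27.7 to 45.1, 47.6 to 59.6 and 29.5 to 49.2 FPKM. Klrb1c was at 21.8 FPKM in Bcl11bfl/fl:Cd4-Cre replicate 3, and Ncr1, Gzmb and Eomes were at most 0.308 FPKM in any library. The 8 myeloid markers summed to 9.22 to 18.2, 31.7 to 114 and 3.87 to 51.8 FPKM, and of the 6 tested 3 rose in Bcl11bm/m, beside 9.92% of all features, while Lyz2 and Mpeg1 fell in Bcl11bfl/fl:Cd4-Cre, beside 9.86%. The highest sum in Bcl11bfl/fl:Cd4-Cre was mostly Fcer1g, at 42.2 FPKM in replicate 3, whereas Lyz2 had a mean level of 0.544 FPKM there against 5.38 FPKM in wild-type. The 6 B cell markers summed to 12.9 to 21.1, 7.38 to 35.9 and 11.3 to 27.7 FPKM, with the highest sum in Bcl11bm/m replicate 1. Of the 2 tested, Cd79a rose in Bcl11bfl/fl:Cd4-Cre, beside 4.65% of all features. The 8 markers of stroma and endothelium summed to 39.3 to 67.3, 143 to 164 and 82.2 to 127.9 FPKM, mostly Pecam1, which rose in both mutants, while Epcam fell in both. Epcam reached the filter only through wild-type, the group where it was high, so its calls were close to fixed by the filter. Mature T cells, gamma-delta T cells and myeloid cells are known to express Itgb7, Itga4 or Itgb2. How many such cells passed the CD24hiTCRβlo CD4+CD8+ gate, and their part in the integrin values, was not tested. Bcl11bm/m replicate 1 had the highest summed myeloid markers of all libraries, and without it the differences from wild-type were 3.38 for Itgb7 (limma adjusted p = 0.0262), -1.45 for Itga6 (0.00537) and -0.74 for Itgb1 (0.034). Bcl11bfl/fl:Cd4-Cre replicate 3 had the highest Klf2 of all libraries, 34.8 FPKM, and without it the differences from wild-type were 2.68 for Itgb7 (limma adjusted p = 0.0317) and -1.01 for Itga6 (0.0219).

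The 8 tested genes fell into those that varied together and those that did not. Over the 12 libraries, Pearson's r on log2(FPKM + 1) was -0.96 between Itgb7 and Itgb1, -0.91 between Itgb7 and Itga6 and 0.82 between Itgb7 and Itga4, while Itgal and Itgb2, which form a dimer, had an r of -0.05. The points share genotype, so these values describe the group differences and carry no p. Among 10780 features, those most like Itgb7 were Unc119 (r = 0.984), Lpcat4 (0.974) and Dhrs11 (0.972), and those most like Itga4 were Chdh (0.958), Heg1 (0.955) and Jak1 (0.952). For Itgb1 they were Stx1a (r = 0.964), Slc12a4 (0.950) and Ccdc64 (0.942), and for Itga6 Senp1 (0.973), Ccdc21 (0.969) and Hook1 (0.961). For Itgb3 they included Gimap3 (r = 0.968) and Slc26a11 (0.962), and they were for Itgav Fam100a (0.968), Ptpra (0.951) and Pigb (0.942), for Itgal Sft2d2 (0.927), Stim1 (0.909) and Slc15a4 (0.904), and for Itgb2 Snap23 (0.962), Dynlt1b (0.955) and Dynlt1a (0.948). No other member was among the 3 features most like any member.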

How the data were processed

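The authors deposited a table of FPKM per gene symbol and library, and stated no scaling between libraries. The submitters' processing notes name TopHat2 2.8.0, Cufflinks 2.1.1 and mm9. Strand-specific libraries are described in the paper's methods, but a kit for small cDNA amounts, with cells of a different sort, in the labels. Positions come from GENCODE vM1 on NCBIM37 and upstream sequences from RefSeq on GRCm38.p6. Features averaging 1 FPKM or more across all 12 libraries, 10780 in number, were fitted on log2(FPKM + 1) in R 4.3.3 by limma 3.58.1 (lmFit, then eBayes with its trend option). Each fit held only the pair of groups in question, tests were two-sided, and p-values were adjusted by Benjamini-Hochberg and called under 0.05. The fit was tested on simulated data with 200 changed features. The other steps ran in Python 3.11.15, using numpy 2.4.6 and pandas 2.3.3, and figures were drawn by matplotlib 3.10.9.

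The genes followed and all lists were chosen with earlier results of these data known. Named were the 9 integrin genes, Bcl11b, Zbtb7b and Runx3, the other integrin genes above the filter, and, per list of activation, ligand and TGF-beta genes and comparison, up to 4 largest rises and 4 largest falls among genes called without overlap between groups. For likeness, the 3 features with the highest Pearson's r were named. A few features that these rules pick are not reported here. Fold changes are differences of log2(FPKM + 1) and understate those of low genes. Depth was estimated from low values of genes with a single transcript, of which 64.2 to 76.3% lay within 0.1 of a whole multiple of a step, against 20% if spread evenly. Alternatives comprised another pseudocount (0.1), the filter removed or raised to 5 FPKM, scaling by median ratios, normalization by quantiles, removal of short RNA features, all 3 groups in 1 fit, a replicate block, library quality weights and leaving out each library. Values by sex-linked genes, the counts without Itgb3 and the ratios of chains with a common partner were added after the data were seen.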

Additional observations from a re-analysis of the deposited data

Results flagged for a closer look

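Itga4 in wild-type replicate 4 was at 17.7 FPKM, apart from the other 4 wild-type libraries at 29.8 to 31.8 FPKM by Dixon's criterion. Among 24 groups of libraries examined, chance sets a library apart in about 1 in 20. Without this library, Itga4 differed from wild-type by 1.35 in Bcl11bm/m (limma adjusted p = 0.00015) and by 0.56 in Bcl11bfl/fl:Cd4-Cre (limma adjusted p = 0.109). Itga5 differed between the mutants by -1.95 on the log2(FPKM + 1) scale (limma adjusted p = 0.00171), with Bcl11bm/m lower in 3 of 3 libraries. As given above, Itga5 reached the filter only through wild-type and Bcl11bfl/fl:Cd4-Cre, the groups where it was high.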

How the results depend on the processing

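The directions and calls of the 8 tested integrin genes held in 63 of 64 values when a library was left out for Bcl11bm/m against wild-type, in 65 of 72 for Bcl11bfl/fl:Cd4-Cre against wild-type and in 51 of 56 between the mutants, and in 59, 55 and 54 of 63 values under the other alternatives. All features called numbered 1866, 1564 and 1102 in these comparisons. A mean of at least 5 FPKM gave 1189 in the first and 656 in the last, no filter gave 796 in the second, and library quality weights gave 3604, 3176 and 2173. Leaving out a library gave 1021 to 2349, 700 to 2678 and 313 to 1121. Median-ratio scaling changed the share of calls that were higher from 32.0 to 46.3% in the second comparison and from 74.6 to 51.6% in the last. These shares were 53.0% in the second without short RNA features and 53.4% in the last under quantile normalization. Of the 8 genes, 5 passed in the second comparison with all 3 groups in 1 fit. Between the mutants, 1 passed under median-ratio scaling, quantile normalization or removal of short RNA features (Itgal), 2 with quality weights (Itgal and Itga4), and 0 to 1 when a library was left out. The cause of these shifts was not tested.

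Differences close to 0 changed sign. In Bcl11bm/m against wild-type, Itgal was 0.0343 under quantile normalization and 0.0135 without short RNA features, and Itgb2 0.0325 and 0.0186, with -0.1925 to 0.0002 when a library was left out. Itga5 in Bcl11bfl/fl:Cd4-Cre was -0.054 to 0.1108 when a library was left out. Between the mutants, Itgb3 was 0.0707 with a pseudocount of 0.1 and 0.0878 with quality weights, Itgb2 -0.0266 under median-ratio scaling and -0.0012 with quality weights, and Itgam -0.0247 under median-ratio scaling, and leaving out a library gave -0.2997 to 0.402, -0.0226 to 0.17 and -0.0378 to 0.0649 for these genes.

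Deviations of same-numbered libraries correlated by -0.211 to 0.152. These values gave no sign that replicate numbers pair the libraries, but they cannot exclude it. With a replicate block, 293, 445 and 46 features were called, and 3, 1 and 0 of the 8 genes. Itgb7 (2.87, limma adjusted p = 0.0857) and Itgb1 (-0.71, 0.167) were not called in Bcl11bm/m, nor Itga6 (-1.12, 0.0581) and Itgb3 (0.0743) in Bcl11bfl/fl:Cd4-Cre, and Itgam between the mutants was -0.0093. The block also ended calls of other genes. In Bcl11bm/m these were Cd82, Skap2, Cyth1, Tns1, Ptk2b, Apbb1ip, Icam1, Vcam1, Lamc1 and Ski, and in Bcl11bfl/fl:Cd4-Cre Cyth1, Lims1 and Vcam1. Between the mutants they were Itga5 (-2.03, limma adjusted p = 0.0565), Smad3 (-1.56, 0.0545), Lamc1 (0.0565), Vcam1 (0.0898), Dok2 (0.131), Tgfbr1 (0.161), Fyb (0.175) and Cd47 (0.195). FPKM carry no read counts, and with a few fragments behind Itgae and wild-type Itgb3 their levels are imprecise.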
